A study of Mus musculus with 8 samples.

Results

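The collagen chains were taken as every non-control probe whose gene name is Col, a number, the letter a and a number, which gave 80 probes of 40 genes among 41174 probes on the array. Of these genes, 27 carried enough signal to be tested among 14849 tested genes: 10 of 11 fibrillar collagens, 7 of 8 basement membrane collagens (collagen IV, XV and XVIII) and 10 of 21 other collagens. The cells were lymph node stromal cells from BALB/c mice in culture, the connective tissue cells that build the framework of the node. They received siRNA against Eif4g3, the gene of a scaffold on which translation initiation factors assemble at the mRNA cap, or control siRNA, at 400 pmol by lipofection at about 80% confluence, and were collected 48 h later. The Eif4g3 siRNA and control siRNA cells carried no other stated treatment or allele. RNA of heavy polysomes, the sucrose gradient fractions of mRNAs loaded with many ribosomes, and total RNA of the whole lysate were each compared on 4 arrays of 2 colours. On all 8 arrays the Eif4g3 siRNA sample was labelled with Cy5 and its control siRNA counterpart with Cy3. Dyes were not swapped, so a probe's dye bias and a change of its transcript cannot be told apart inside either fraction, whereas a constant bias drops out of heavy polysome minus total RNA. The design gives 7 plates per siRNA with pooling for the polysome samples and does not state whether the arrays hold separate cultures, so the p-values may measure technical spread.

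Collagens are secreted proteins of 3 chains wound into a triple helix. Fibrillar collagens, led by types I and III in most connective tissue, assemble into the load-bearing fibres, whereas collagen IV forms the sheet-like network of basement membranes, with types XV and XVIII at its border. In lymph nodes, stromal cells of the fibroblast type lay down collagen fibres wrapped in basement membrane material, which form the conduits of the node. The chains are hydroxylated and folded in the endoplasmic reticulum, carried out of it in large vesicles, trimmed at their ends and cross-linked outside the cell.

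Unless another scale is named, values are the log2 of Eif4g3 siRNA over control siRNA signal, normalised within each array, and ± marks the SD over 4 arrays. A gene was said to rise or fall where its adjusted p was under 0.05 in limma's moderated test with Benjamini-Hochberg adjustment over all 14849 genes. The siRNA target fell on every array: Eif4g3 read -3.16, -2.24, -2.43 and -2.0 on heavy polysome arrays 1 to 4 and -2.48, -1.81, -1.94 and -2.05 on total RNA arrays 1 to 4. All 5 fibroblast markers listed (Pdgfra, Pdgfrb, Pdpn, Thy1 and Vim) were well above background on all 8 arrays in both channels. So were 3 of 5 mural and smooth muscle markers, Acta2, Myh11 and Cspg4, and 3 of 6 macrophage and leukocyte markers, Cd68, Csf1r and Lyz2. Ptprc, Itgam and Adgre1 of the leukocyte list never were in either channel, nor were Pecam1 and Lyve1 of 6 endothelial markers, Cdh1 of 4 epithelial markers or Rgs5 of the mural list. Cdh5, Tek and Epcam never were in Cy5, nor was Prox1 in Cy3. On all 8 arrays 0 endothelial markers were well above background in either channel, and 1 epithelial marker was in Cy5 and 0 in Cy3. Still, 1 endothelial and 2 epithelial markers carried enough signal to be tested. The arrays did not repeat each other equally. Over all tested genes, heavy polysome arrays 1 and 3 and total RNA array 4 had the lowest mean correlation with the other arrays of their fraction (0.29, 0.32 and 0.33), against 0.41 to 0.57 for the other 5, while heavy polysome arrays 2 and 4 correlated at 0.88 with each other. By the last digit of the slide code these 3 arrays, and total RNA array 2, lay at position 1 of their slide and the other 4 at position 3, so results are also given by position below.

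Promoters are shown for the 3 collagen genes whose fall was the most stable or was seen in both fractions, Col18a1, Col5a3 and Col1a2. Each line holds the 150 bases before the annotated start, 5′ to 3′ on the gene's strand, from RefSeq on GRCm38.p6, with CCAAT (the CCAAT box) and GGGCGG (the GC box core) in capitals wherever they occur on either strand, so that CCGCCC is GGGCGG read on the other strand. Col18a1 has 2 annotated starts, at chr10:77166531-77166680 (minus strand, with 3 GC boxes) and chr10:77113706-77113855 (minus strand, with 0 of either motif). The Col5a3 window, chr9:20815068-20815217 (minus strand), holds 1 CCAAT and 2 GC boxes, and the Col1a2 window, chr6:4505468-4505617 (plus strand), holds 1 CCAAT.
Col18a1 start 1: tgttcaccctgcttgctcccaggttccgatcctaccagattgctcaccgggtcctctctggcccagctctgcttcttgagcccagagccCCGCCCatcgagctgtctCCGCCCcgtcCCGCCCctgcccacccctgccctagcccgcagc
Col18a1 start 2: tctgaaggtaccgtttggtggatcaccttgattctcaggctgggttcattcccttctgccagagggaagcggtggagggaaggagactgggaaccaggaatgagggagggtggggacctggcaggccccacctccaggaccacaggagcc
Col5a3: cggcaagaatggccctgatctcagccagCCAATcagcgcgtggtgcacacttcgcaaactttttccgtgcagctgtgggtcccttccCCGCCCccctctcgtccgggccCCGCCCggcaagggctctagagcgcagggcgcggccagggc
Col1a2: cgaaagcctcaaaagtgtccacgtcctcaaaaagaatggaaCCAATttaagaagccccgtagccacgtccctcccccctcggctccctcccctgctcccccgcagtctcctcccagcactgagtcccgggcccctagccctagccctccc
Of the 27 tested collagen genes, 23 had a promoter entry, and 13 of these held GGGCGG, 7 CCAAT and 3 TATAAA, on either strand and in any of their windows. Over 32851 promoter windows of the same length, 28.6% held GGGCGG, 24.5% CCAAT and 7.57% TATAAA. These shares are per window and the collagen counts per gene, where a gene with several windows has more room for a match. The 2 are therefore not directly comparable. A match of letters is a description of the window and shows no bound factor.

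In heavy polysome RNA, 6 of the 27 tested collagens fell after Eif4g3 siRNA and none rose, that is 22.2% against 3.99% of all tested genes that fell and 4.83% that rose. The 6 were the fibrillar chains Col5a3, Col1a1, Col5a1 and Col1a2 and the basement membrane chains Col18a1 and Col15a1. Their decreases lay between 1.32-fold for Col15a1 and 1.93-fold for Col18a1. The median of the 27 collagens was -0.20 and 20 lay below 0, whereas the median of all 14849 tested genes was 0.02 and 6941 lay below 0. With median centring in place of loess, limma called 0 of the 6, and 0 of all genes, in heavy polysome RNA (2.56% of all genes had an unadjusted p under 0.05). On all 4 heavy polysome arrays 8 of the 27 (29.6%) lay below 0, as did 14.6% of all tested genes.

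**Figure D1:**
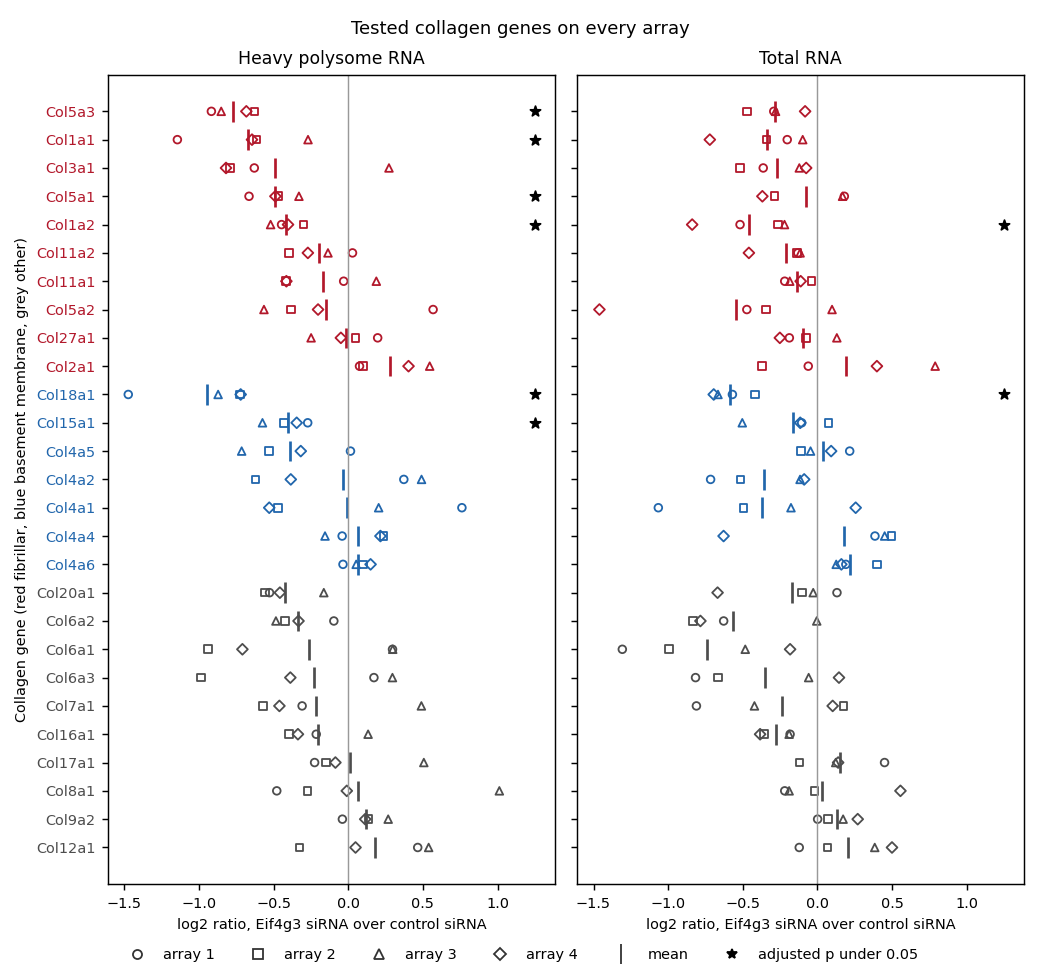
The log2 ratio of Eif4g3 siRNA over control siRNA for the 27 tested collagen genes, in heavy polysome RNA (left) and total RNA (right). Open symbols are the 4 arrays of a fraction, vertical ticks their mean, and stars mark an adjusted p under 0.05. The 6 starred genes in heavy polysome RNA lie left of 0 on all 4 arrays, while Col4a1, Col4a2 and Col6a1 lie on both sides.

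Among the fibrillar collagens in heavy polysome RNA, Col5a3, a minor chain of collagen V, which regulates fibril width, read -0.92, -0.63, -0.85 and -0.68 on arrays 1 to 4. It averaged -0.77 ± 0.14, a 1.70-fold decrease (adjusted p = 0.0034 in limma). Its 4 values lay close together. Col1a1, which encodes the α1 chain of collagen I, read -1.14, -0.62, -0.27 and -0.65 and averaged -0.67 ± 0.36 (adjusted p = 0.0229), lowest on array 1 and nearest to 0 on array 3. Col1a2, the partner chain of collagen I, read -0.45, -0.30, -0.52 and -0.40 and averaged -0.42 ± 0.09 (adjusted p = 0.0462), with the narrowest spread of the 6. Col5a1, a chain of collagen V, read -0.66, -0.47, -0.33 and -0.49 and averaged -0.49 ± 0.14 (adjusted p = 0.0306), below 0 on every array. The call for Col5a3 held without any 1 of the 8 arrays (adjusted p up to 0.0237), while those for Col1a1 (up to 0.088) and Col5a1 (up to 0.113) were lost without heavy polysome array 1, 2 or 4. That for Col1a2 was lost without any 1 array except total RNA array 4 (up to 0.145).

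The other fibrillar collagens did not pass the test in heavy polysome RNA. Col3a1, the chain of collagen III, read -0.63, -0.79, 0.27 and -0.82 (mean -0.49 ± 0.52, adjusted p = 0.107), so 3 arrays were low and array 3 lay on the other side of 0. Col5a2, another chain of collagen V, read 0.57, -0.39, -0.56 and -0.20, with array 1 apart from the other 3. Col2a1, the chain of cartilage collagen II, was the one fibrillar gene with a mean above 0 (0.28 ± 0.23, adjusted p = 0.346) and lay above 0 on all 4 arrays. Col11a1 (-0.17 ± 0.30), Col11a2 (-0.19 ± 0.18) and Col27a1 (-0.01 ± 0.19) were dim. In heavy polysome RNA Col11a1 was well above background on 3 arrays in Cy5 and 2 in Cy3, and Col11a2 on 2 and 3. Col27a1 was not well above background in Cy5 on any total RNA array, so no fold is given for it there. Fibrillar Col24a1 did not reach the signal needed.

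Among the basement membrane collagens in heavy polysome RNA, Col18a1, whose C-terminal part is released as endostatin, read -1.47, -0.72, -0.87 and -0.72 and averaged -0.95 ± 0.36 (adjusted p = 0.00445). Array 1 was the lowest, and the call held without any 1 of the 8 arrays (adjusted p up to 0.0237). Col15a1, the related chain of collagen XV, read -0.27, -0.43, -0.57 and -0.35 and averaged -0.41 ± 0.13 (adjusted p = 0.0441). All 4 of its arrays were below 0, but without any single heavy polysome array, or total RNA array 1 or 2, it no longer passed (adjusted p up to 0.135). The 5 tested collagen IV chains did not pass. Col4a1 and Col4a2, which form the common collagen IV trimer and whose genes lie next to each other in opposite directions, read 0.76, -0.47, 0.20 and -0.53, and 0.37, -0.62, 0.49 and -0.39. Both were above 0 on arrays 1 and 3 and below 0 on arrays 2 and 4. Col4a5 averaged -0.39 ± 0.31 (adjusted p = 0.0792), Col4a4 0.06 ± 0.19 and Col4a6 0.07 ± 0.08, and Col4a3 did not reach the signal needed.

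No collagen outside these classes passed the test in heavy polysome RNA. Of the 3 chains of collagen VI, which form beaded filaments around cells, Col6a2 averaged -0.33 ± 0.17 (adjusted p = 0.163) and was below 0 on all 4 arrays. Col6a1 read 0.30, -0.94, 0.30 and -0.71 and Col6a3 0.17, -0.98, 0.30 and -0.39, with the same split of arrays as Col4a1. Col20a1 averaged -0.43 ± 0.18 (adjusted p = 0.0758), also below 0 on all 4 arrays. Col8a1, a short-chain collagen, read -0.48, -0.27, 1.01 and -0.01, with array 3 far above the others. The means of the other 5 tested genes of the class, Col7a1 (the anchoring fibril chain), Col9a2, Col12a1, Col16a1 and Col17a1, lay between -0.21 and 0.18. The 11 untested genes were Col8a2, Col9a1, Col9a3, Col10a1, Col13a1, Col14a1, Col19a1, Col22a1, Col23a1, Col25a1 and Col28a1.

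In total RNA, 2 of the 27 collagens fell and none rose, 7.41% against 2.67% of all tested genes that fell and 1.67% that rose. Col18a1 read -0.57, -0.42, -0.67 and -0.69 (mean -0.59 ± 0.12, adjusted p = 0.0373), and Col1a2 read -0.52, -0.26, -0.22 and -0.84 (mean -0.46 ± 0.28, adjusted p = 0.0491). Both were below 0 on every array, so they fell in both fractions, but both calls were lost without any single total RNA array or without heavy polysome array 2 or 4 (adjusted p up to 0.143 and 0.146). Of the others that fell in heavy polysome RNA, Col1a1 read -0.20, -0.34, -0.10 and -0.72 in total RNA (mean -0.34 ± 0.27, adjusted p = 0.207). Col5a3 read -0.29, -0.47, -0.28 and -0.08 there (mean -0.28 ± 0.16, adjusted p = 0.114). Both were thus also below 0 on all arrays, without passing. Col5a1 read 0.18, -0.29, 0.17 and -0.37 and Col15a1 -0.11, 0.07, -0.50 and -0.12, on both sides of 0. The median of the 27 collagens in total RNA was -0.21, against -0.04 over all tested genes, and 19 of 27 lay below 0. So did 8625 of all 14849 tested genes.

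The collagen VI chains had the lowest median of the collagen subfamilies in total RNA (-0.56 over 3 genes), with no call. Col6a1 read -1.31, -1.0, -0.48 and -0.18 (mean -0.74 ± 0.50, adjusted p = 0.11), below 0 on every array with a wide spread. Col6a2 averaged -0.56 ± 0.38 (adjusted p = 0.0513) and Col6a3 -0.35 ± 0.46. With the slide as a random block Col6a1 (adjusted p = 0.0467) and Col6a2 (0.0229) passed beside Col18a1 and Col1a2, 4 of 27, where 10.1% of all genes passed in either direction. Col5a2 read -0.47, -0.35, 0.10 and -1.46, where array 4 was far below the others, and did not pass (adjusted p = 0.223). On all 8 arrays of both fractions, 5 collagens lay below 0 (18.5%): Col18a1, Col1a1, Col1a2, Col5a3 and Col6a2. The share over all tested genes was 7.8%.

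None of the 27 collagens differed between heavy polysome and total RNA in its siRNA ratio, and neither did any of the 14849 genes (0%). Without adjustment 3 collagens had a limma p under 0.05, as had 5.28% of all genes. The lowest was Col5a3, where heavy polysome minus total RNA was -0.49 (95% interval -0.78 to -0.19, adjusted p = 0.846 in limma). Col5a1 differed by -0.41 (-0.78 to -0.04, adjusted p = 0.846) and Col4a5 by -0.42 (-0.81 to -0.04, adjusted p = 0.846). For Col18a1 the difference was -0.36 (-0.77 to 0.05), for Col1a1 -0.33 (-0.79 to 0.13) and for Col1a2 0.04 (-0.31 to 0.39). These intervals leave room for a difference of either direction for Col18a1, Col1a1 and Col1a2. The call of a gene in one fraction and not in the other, as for Col1a1, Col5a1, Col5a3 and Col15a1, was therefore not shown to be a difference between fractions. In simulated data of the same size this contrast recovered 48% of 2-fold and 18% of 1.5-fold differences. There 100 genes were changed at each fold, in heavy polysome RNA only, and recovery after adjustment depends on that number. The simulated noise was independent between arrays and equally wide on each. The real arrays differed in noise and in how they correlated, so these shares may not hold for them.

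The classes were compared by their counts and medians only. In heavy polysome RNA the median was -0.31 for fibrillar, -0.04 for basement membrane and -0.21 for other collagens, and 4 of 10, 2 of 7 and 0 of 10 genes fell. In total RNA the medians were -0.24, -0.16 and -0.20, with 1, 1 and 0 genes that fell. Of the 10 fibrillar genes, 9 lay below 0 in each fraction. Of all 14849 tested genes, 6941 did in heavy polysome RNA and 8625 in total RNA. The fibrillar and the basement membrane median were both below the median of all genes on each of the 8 arrays. The fibrillar median lay between -0.41 and -0.24 on heavy polysome arrays and between -0.31 and -0.11 on total RNA arrays. The basement membrane median ran from -0.47 to -0.04 and from -0.12 to -0.09 on the same arrays. The median of the other collagens ran from -0.41 to 0.30 and from -0.20 to 0.12, and was above 0 on heavy polysome array 3 and total RNA array 4. The basement membrane class was uneven within itself, with collagen XV and XVIII at -0.68 and the 5 collagen IV chains at -0.01 in heavy polysome RNA (medians).

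**Figure D2:**
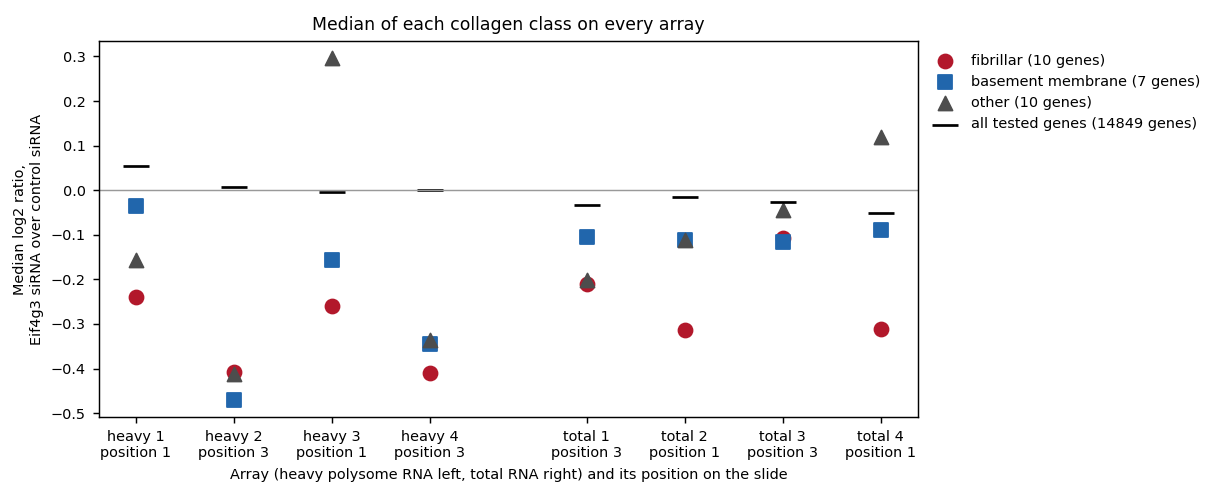
Median log2 ratio of Eif4g3 siRNA over control siRNA of each collagen class on every array, heavy polysome arrays left of total RNA arrays, with the slide position of each array. Bars mark the median of all 14849 tested genes. The fibrillar and basement membrane medians lie below it on all 8 arrays, whereas the other collagens lie above 0 on heavy polysome array 3 and total RNA array 4.

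Position on the slide moved with the collagen ratios in heavy polysome RNA. On the 2 heavy polysome arrays at position 3 (arrays 2 and 4) the collagen median was -0.39 with 23 of 27 below 0, and on the 2 at position 1 (arrays 1 and 3) it was -0.03 with 14 of 27 below 0. Of all 14849 tested genes, 7352 lay below 0 at position 3 and 6912 at position 1. In total RNA the medians were -0.19 at position 3 and -0.26 at position 1. All 3 classes had a lower heavy polysome median at position 3 than at position 1. It was -0.38 and -0.12 for fibrillar, -0.42 and -0.10 for basement membrane and -0.37 and 0.13 for the other collagens. Col4a1 averaged -0.50 and 0.48 at the 2 positions in heavy polysome RNA, Col4a2 -0.50 and 0.43, Col6a1 -0.82 and 0.30, Col6a3 -0.69 and 0.23, and Col7a1 -0.52 and 0.09, so the means of these 5 combined opposite signs. The 6 collagens that fell were below 0 at both positions. For Col18a1 the values were -0.72 at position 3 and -1.17 at position 1, and for Col5a3 -0.65 and -0.88. Each fraction holds both positions equally, so a fit with position as a fixed block keeps the means and alters only the spread. It therefore cannot show whether position moved the means. The same 6 collagens fell in heavy polysome RNA in that fit, where 11.4% of all genes passed in either direction. In total RNA Col6a2 joined Col18a1 and Col1a2 in that fit (adjusted p = 0.0448), where 6.79% passed in either direction.

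Without the 3 arrays of lowest correlation, which leaves heavy polysome arrays 2 and 4 against 0, 13 of 27 collagens fell in heavy polysome RNA, where 16.4% of all genes passed in either direction. They included Col3a1 (-0.81, adjusted p = 0.00592), Col6a1 (-0.82, 0.0194), Col4a2 (-0.50, 0.0496) and Col4a5 (-0.42, 0.0398), but neither Col1a2 nor Col15a1. In total RNA 8 collagens fell and 1, Col4a4, rose (0.44, adjusted p = 0.00681), where 21.7% of all genes passed. Those that fell included Col6a1 (-0.93, 0.00549), Col4a1 (-0.58, 0.0285) and Col5a3 (-0.35, 0.0191). The arrays kept in heavy polysome RNA are the pair that correlated most. With their mean counted as 1 replicate in the full set, 2 collagens fell in heavy polysome RNA (3.04% of all genes passed in either direction) and 0 in total RNA (2.05% passed), where 7 collagens had an unadjusted limma p under 0.05, as had 20% of all genes.

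The probes of Col1a1 and Col2a1 that represent them were each printed 10 times on an array, which shows the spread within an array. For Col1a1 the SD over spots was 0.15, 0.09 and 0.04 on heavy polysome arrays 1, 2 and 4 and 0.07, 0.09 and 0.05 on total RNA arrays 1 to 3. On heavy polysome array 3 it was 0.40, with spots from -0.80 to 0.25, and on total RNA array 4 it was 0.54, with spots from -1.45 to -0.02. The Col2a1 spots had an SD of 0.44 on heavy polysome array 3 and 0.24 on total RNA array 4, against 0.03 to 0.10 on the other 6 arrays. In their order on the array, the spots changed in runs. On total RNA array 4, Col1a1 read -0.59 to -0.02 in spots 1 to 6 and -1.45 to -1.06 in spots 7 to 10. On heavy polysome array 3, spots 1 to 3 read 0.18 to 0.25 for Col1a1 and 0.95 to 1.26 for Col2a1. Spots 4 to 10 there read -0.80 to 0.05 and 0.07 to 0.52. The cause of these runs was not tested. The spread within an array of probes printed once cannot be measured. On heavy polysome array 1, with its low Col1a1 value of -1.14, the spots ran from -1.39 to -0.90. Its SD of 0.15 was the widest for Col1a1 outside heavy polysome array 3 and total RNA array 4. In order, its spots went from -1.08 at spot 1 to -1.39 at spot 10.

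**Figure D3:**
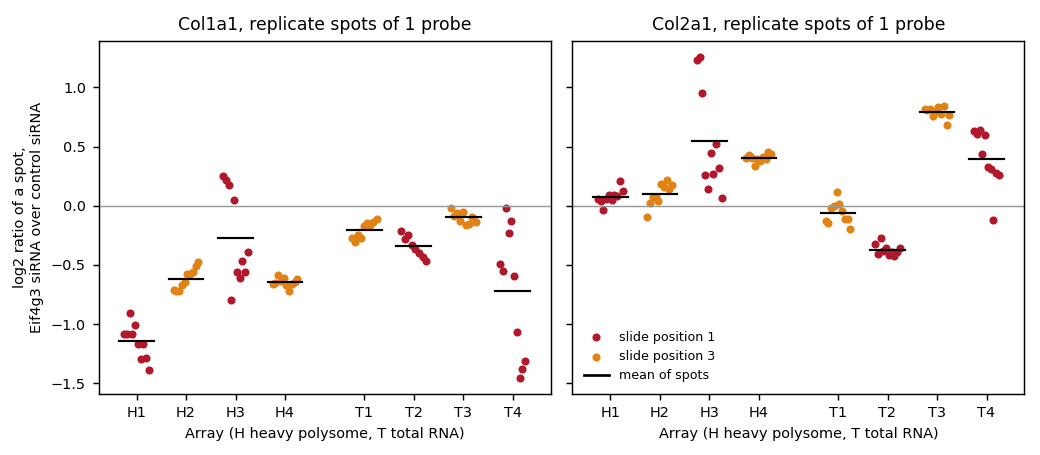
Log2 ratio of Eif4g3 siRNA over control siRNA of each replicate spot of the Col1a1 and Col2a1 probes, heavy polysome arrays (H) left of total RNA arrays (T), coloured by slide position. Lines are the mean of the spots of an array. The spots of both probes spread widely on heavy polysome array 3 and total RNA array 4 and lie closer together on the other arrays. Within an array they are drawn in their order, and the wide spread comes in runs of neighbouring spots.

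Of the 27 genes, 12 had more than 1 probe above background, which were compared in a fit of 21397 probes. In heavy polysome RNA 8 of 40 collagen probes fell and 0 rose, where 7.85% of all probes passed in either direction. In total RNA 3 of 40 fell and 0 rose, where 3.91% passed in either direction. The 2 Col18a1 probes lie at chr10:76496791-76496850 and, for the second, from position 76497036 on mm8, the build of the array files. The second probe read -0.74, -0.49, -0.33 and -0.37 in heavy polysome RNA (mean -0.48 ± 0.19, adjusted p = 0.018) and -0.61, -0.42, -0.41 and -0.67 in total RNA (mean -0.53 ± 0.14, adjusted p = 0.023). Both Col18a1 probes thus fell in both fractions, with a smaller decrease of the second in heavy polysome RNA. The representative Col1a1 probe lies at chr11:94767851-94767910 (mm8). A second Col1a1 probe starting at 94766828 averaged -0.54 ± 0.21 in heavy polysome RNA without passing (adjusted p = 0.088), and another starting at 94754053 averaged -0.03 ± 0.64 and lay on both sides of 0. In total RNA they averaged -0.42 ± 0.52 and 0.01 ± 0.25, without passing, and each lay on both sides of 0.

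The second Col5a1 probe read -1.84, -0.30, -0.12 and -0.34 in heavy polysome RNA (adjusted p = 0.125), all below 0 with array 1 far below the others. For Col6a2 the second probe passed in heavy polysome RNA (-0.53 ± 0.34, adjusted p = 0.043) where the representative one did not (-0.33 ± 0.17, adjusted p = 0.168 in the fit of probes). The second Col3a1 probe averaged -0.07 ± 0.32 in heavy polysome RNA, closer to 0 than the representative probe. For Col4a1 and Col4a2 the second probes showed the same split, with 0.15, -0.54, 0.50 and -0.47 for Col4a1 and 0.67, -0.87, 0.34 and -0.73 for Col4a2 on heavy polysome arrays 1 to 4. The second Col6a3 probe did not show the split of the representative one, with -0.39, -0.52, 0.36 and -0.28. The Col8a1 probes averaged 0.06 and 0.27 in heavy polysome RNA and the Col2a1 probes 0.28 and 0.24. When probes of a gene were averaged, Col1a1 no longer passed in heavy polysome RNA, and 6 collagens did. Col5a3 and Col1a2 had 1 probe above background each, at chr9:20520550-20520609 and chr6:4490619-4490678 (mm8). Which exon or UTR these probes match was not analysed here.

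The share of each transcript in heavy polysomes was described by heavy polysome over total RNA within each channel, where equal RNA mass was labelled and a value is relative to the other transcripts. No collagen passed in the Eif4g3 siRNA channel (Cy5; 0.155% of all genes passed) or the control siRNA channel (Cy3; 2.28%, with 0.0135% of genes higher and 2.27% lower). Without adjustment 4 collagens in Cy5 and 2 in Cy3 had a limma p under 0.05, where 12.3% and 12.4% of all genes had one. The collagen median was -0.17 in Cy5 and -0.13 in Cy3, against 0.02 and -0.02 over all tested genes, and 18 and 21 of 27 lay below 0. Of all 14849 tested genes, 7142 in Cy5 and 7940 in Cy3 lay below 0. Slides held 1 fraction each, so slide and fraction can be set apart only through the several slides of a fraction. With the slide as a random block no collagen passed in either channel (lowest adjusted p = 0.153 in Cy5 and 0.0727 in Cy3).

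Col4a4 was the lowest collagen in both channels. Its log2 signal in Cy5 was 7.43, 7.83, 7.14 and 7.43 on heavy polysome arrays, against 8.59, 10.63, 9.20 and 8.05 on total RNA arrays. In Cy3 it was 7.47, 7.59, 7.29 and 7.21 on heavy polysome arrays, against 8.2, 10.13, 8.75 and 8.68 on total RNA arrays. Total RNA array 2, which was scanned on another day with an older software version, was the highest in both channels. Heavy polysome minus total RNA was -1.66 in Cy5 (95% interval -2.73 to -0.60, adjusted p = 0.21) and -1.55 in Cy3 (-2.36 to -0.75, adjusted p = 0.0622). In Cy3 it passed when total RNA array 1 or array 2 was left out (-1.80 and -1.15, adjusted p = 0.0364 and 0.0205) and with the processed signals of the scanner software (-2.01, 0.0471). Col5a3 followed in Cy5 with -1.20 (-2.07 to -0.33, adjusted p = 0.264) and had -0.71 (-1.59 to 0.17) in Cy3. Col4a6 had -0.93 in Cy5 and -0.78 in Cy3 (adjusted p = 0.349 and 0.353). Col8a1 was highest in both, at 0.71 in Cy5 and 0.68 in Cy3, with intervals that include 0, and it passed in Cy5 without total RNA array 4 (1.32, adjusted p = 0.0495).

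**Figure D4:**
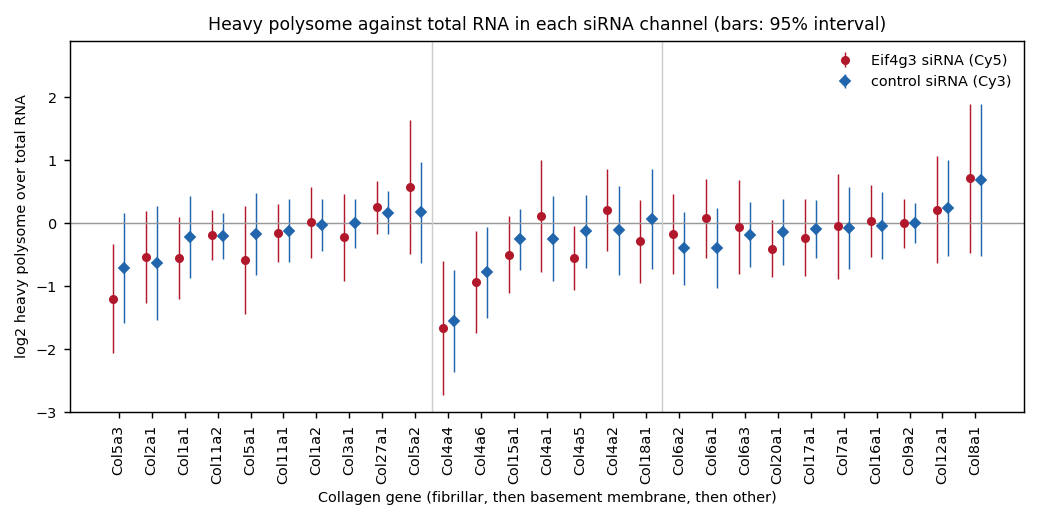
Log2 of heavy polysome over total RNA for the 27 tested collagens, in the Eif4g3 siRNA channel (circles) and the control siRNA channel (diamonds), with 95% intervals from limma. Most intervals include 0. Col4a4 lies lowest in both channels, at -1.66 and -1.55, and Col5a3 lies at -1.20 and -0.71.

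Of the listed genes for collagen synthesis, export, processing and reception, 36 were tested. In heavy polysome RNA 2 rose (Larp6 and Pcolce2) and 1 fell (Mrc2), 8.33% of the 36 against 8.82% of all genes, and in total RNA 2 rose (the same) and 2 fell (Mrc2 and Sparc), 11.1% against 4.34%. The median of the 36 was 0.03 in heavy polysome RNA and -0.24 in total RNA. By role, the 15 genes of synthesis and modification had medians of 0.03 in heavy polysome RNA and -0.32 in total RNA, with 6 and 13 below 0. Of all 14849 tested genes, 6941 and 8625 lay below 0 in these fractions. The 15 of export and processing had medians of 0.04 and -0.13, and the 6 receptors 0.01 and -0.16. None differed between fractions after adjustment.

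Larp6, an RNA-binding protein that binds the 5′ stem-loop of collagen I mRNAs and controls their translation, read 0.57, 0.50, 0.55 and 0.36 in heavy polysome RNA and 0.59, 0.63, 0.70 and 0.46 in total RNA. It averaged 0.49 ± 0.10 (adjusted p = 0.00834) and 0.59 ± 0.10 (adjusted p = 0.00947), above 0 on all 8 arrays. The representative probes of Col1a1 and Col1a2 lay below 0 on the same 8. Another Col1a1 probe, starting at 94754053, averaged 0.01 ± 0.25 in total RNA and lay on both sides of 0 in each fraction. The rise of Larp6 in total RNA no longer passed without array 3 of that fraction (adjusted p = 0.0589). With median centring in place of loess Larp6 read -0.29 there, against -0.77 for the median of all genes. Pcolce2, an enhancer of procollagen C-proteinase, averaged 0.69 ± 0.22 and 0.68 ± 0.38 in heavy polysome and total RNA (adjusted p = 0.019 and 0.0336), also above 0 on all arrays, but with median centring it read -0.27 in total RNA. Mrc2, the endocytic receptor that takes up collagen, read -0.24, -0.82, -0.90 and -0.88 in heavy polysome RNA and -0.80, -0.56, -0.52 and -1.70 in total RNA, below 0 throughout (adjusted p = 0.0491 and 0.0344). Sparc, a collagen-binding matricellular protein, averaged -0.27 ± 0.35 and -0.55 ± 0.19 in heavy polysome and total RNA (adjusted p = 0.233 and 0.0495). The calls for Pcolce2 in heavy polysome RNA were lost without heavy polysome array 2 or 4, and those for Mrc2 in both fractions and for Sparc and Pcolce2 in total RNA without most single arrays.

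Lox, the enzyme that starts collagen cross-linking, read 1.30, 0.39, 0.43 and 0.43 in heavy polysome RNA (mean 0.64 ± 0.44, adjusted p = 0.0856) and 0.38, -0.70, -0.01 and -0.64 in total RNA (mean -0.24 ± 0.52, adjusted p = 0.533). The difference of 0.88 (95% interval 0.24 to 1.52) had an adjusted p of 0.846 in limma. Among the folding enzymes, P4hb, the β subunit of prolyl 4-hydroxylase, averaged 0.28 ± 0.68 and -0.31 ± 0.62, and the collagen chaperone Serpinh1 -0.28 ± 0.47 and -0.02 ± 0.66, in heavy polysome and total RNA. Bmp1, a procollagen C-proteinase, averaged 0.46 ± 0.62 and 0.20 ± 0.41, and the collagen receptor Ddr2 0.01 ± 0.31 and 0.04 ± 0.21. None of these 4 passed in either fraction, and their values spread over both sides of 0.

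**Figure D5:**
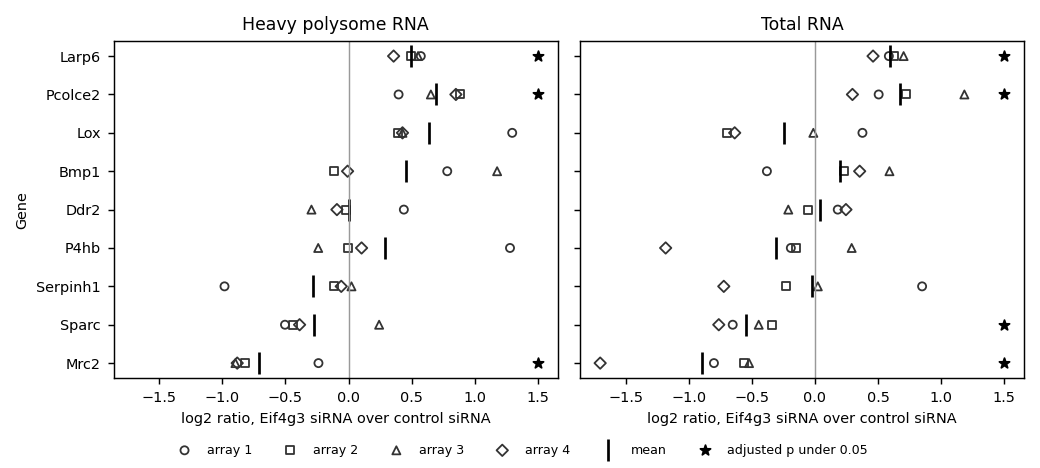
Log2 ratio of Eif4g3 siRNA over control siRNA for 9 genes of collagen synthesis, processing and reception, in heavy polysome RNA (left) and total RNA (right). Open symbols are the 4 arrays, ticks their mean, and stars mark an adjusted p under 0.05. Larp6 and Pcolce2 lie right of 0 on all 8 arrays, though in total RNA not with median centring, and Mrc2 left of 0 on all 8.

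Markers of the cells moved as follows beside the collagens. Of the fibroblast markers, Pdgfra (-0.65 ± 0.13, adjusted p = 0.0108) and Pdgfrb (-0.47 ± 0.17, adjusted p = 0.0453) fell in heavy polysome RNA. The other 3 averaged above 0 there without passing in either fraction: Vim 0.55 ± 0.48 (adjusted p = 0.0947, above 0 on all 8 arrays), Pdpn 0.25 ± 0.21 (adjusted p = 0.285) and Thy1 0.10 ± 0.53 (adjusted p = 0.764). The median of the 5 was 0.10 in heavy polysome RNA, so the list did not move one way. The summed linear signal of the 5 fibroblast markers ran from 59598 to 77079 in Cy5 and 57360 to 77417 in Cy3 on heavy polysome arrays, and from 64013 to 98926 and 66060 to 93756 on total RNA arrays. Of the macrophage and leukocyte markers Csf1r fell in total RNA (-0.57 ± 0.30, adjusted p = 0.0447), with a summed signal of the 6 of 688 to 1744 in Cy5 and 989 to 1495 in Cy3 on heavy polysome arrays and 707 to 1449 and 898 to 1410 on total RNA arrays. None of the 4 tested mural and smooth muscle markers passed in either fraction, and the summed signal of the 5 on the array ran from 68885 to 78944 in Cy5 and 46512 to 70448 in Cy3 on heavy polysome arrays, and from 54367 to 83104 and 60122 to 78962 on total RNA arrays. The summed signals of the siRNA channels overlapped in each fraction for these 3 lists. These ranges pool the 4 arrays and leave out that both channels share an array, and the brightest genes weigh most in a sum. The overlap therefore cannot show whether the markers shifted between the siRNAs. The 2 tested epithelial markers had a median of 0.30 in heavy polysome RNA and 0.29 in total RNA, and neither passed. The 1 tested endothelial marker averaged -0.10 and -0.05, also without passing. The part of all these markers in the collagen ratios was not tested. In these bulk samples fewer cells of a type and less RNA per cell cannot be told apart.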

How the data were processed

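Per the submitters' processing notes, Agilent Feature Extraction made the tables. Per the file headers it was version 10.7.3.1 with protocol GE2_107_Sep09, except for total RNA array 2 (10.5.1.1, GE2_105_Dec08). The deposited scanner tables give, for each spot, signal intensity and its surrounding background in Cy5 and Cy3, with processed signals and their log10 ratio (Cy5 over Cy3). The log2 values of the deposited series matrix were within 0.01 of the log2 ratio of processed signals for at least 99.8% of 41174 probes on each array. Column medians of that matrix spanned -0.21 to 0.31, so the arrays are not centred. Between 38.4% and 58.0% of probes were well above background per channel. Of 98 collagen spots per array 0 to 2 were left out as outliers and 0 were saturated. The number of arrays limits the precision.

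Signals were corrected with normexp (offset 50), ratios normalised by loess (span 0.3) within arrays, and spots of a probe averaged. The probe of highest mean signal stood for its gene, and the gene was tested if 3 or more of the 4 arrays of a fraction had it well above background in a channel. limma 3.58.1 in R 4.3.3 (with the data.table package, 1.17.8) fitted 1 coefficient per fraction over 8 arrays, two-sided. Channels were compared after Aquantile normalisation. Figures used Python 3.11.15 and matplotlib 3.10.9. On simulated data of 14849 genes the heavy polysome fit found 77% of changes of 2-fold, 50% of those of 1.5-fold and 9 false ones. The simulation changed 100 genes at each fold, a number on which recovery depends, and its noise was independent between arrays. These numbers may therefore not hold for the real arrays. Gene names follow the first total RNA array, and the second named 1 more probe Col11a1. Members and lists were chosen with earlier results of these data known. Named were all tested collagens, those called or with discordant probes in full, and pathway genes that passed in total RNA, heavy polysome RNA or the difference, plus P4hb, Serpinh1, Lox, Bmp1, Larp6 and Ddr2. Alternatives covered background correction, normalisation, filters, probe choice, slide, replicate number, position and left-out arrays; position was added after seeing the data.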

Additional observations from a re-analysis of the deposited data

Results flagged for a closer look

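Among 54 groups of 4 arrays (27 collagens in 2 fractions), 2 had 1 array far from the other 3 by Dixon's test, and chance flags about 1 in 20. Col11a2 in total RNA read -0.46 on array 4, against -0.14 to -0.12 on the other 3. Col4a4 in total RNA read -0.63 on array 4, against 0.39 to 0.50 on the other 3. Both lie on total RNA array 4, one of the 3 arrays of lowest correlation, where the replicate spots of Col1a1 and Col2a1 also spread widely. The cause was not tested.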

How the results depend on the processing

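The total RNA rises of Larp6 and Pcolce2 turned negative with median centring (-0.29 and -0.27, above the median of all genes in that setting); no other collagen or pathway gene called in either fraction changed sign under any alternative run. For collagens in heavy polysome RNA (6 called), the count was 0 with median centring, 2 with only the arrays of the fraction, 2 with the mean of heavy polysome arrays 2 and 4 as 1 replicate, 13 without the 3 arrays of lowest correlation and 2 to 7 when each array was left out. The count there was 9 with the slide as a random block and 8 with processed signals, where 17.8% and 14% of all genes passed in either direction. With only genes well above background in both channels on all 8 arrays it was 4, where 10.4% passed. In total RNA (2 called) it was 0 with median centring, 0 without a filter on dim probes, 4 with the slide as a random block, 1 with only the arrays of the fraction, 0 with the mean of arrays 2 and 4, 9 without the 3 arrays and 0 to 3 when each was left out. The pathway count in heavy polysome RNA (3) was 0 with median centring, 5 with the slide block, 1 with only the arrays of the fraction, 1 with the mean, 7 without the 3 arrays and 1 to 4 when each was left out. In total RNA (4) it was 0 with median centring, 1 without the filter, 1 with the mean, 13 without the 3 arrays and 0 to 6 when each was left out. In Cy5 1 collagen (Col12a1, higher) passed with median scaling and 0 to 1 with single arrays left out, and in Cy3 1 with processed signals and 0 to 1. Median scaling called 9.99% of all genes in Cy5, and processed signals 2.46% in Cy3. With single arrays left out the shares were 0.0202% to 0.62% in Cy5 and 0.539% to 2.3% in Cy3. The cause of these shifts was not tested.

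Median centring left the median of all tested genes at 0.00 in heavy polysome RNA, where the collagens lay at -0.18, and moved it to -0.77 in total RNA, where they lay at -0.97. In limma it called 0 of all genes in both fractions, with 2.56% and 43.9% at an unadjusted p under 0.05 in heavy polysome and total RNA. The heavy polysome calls of Col18a1 and Col5a3 held under 18 of 19 alternatives each and were lost with median centring. Those of Col1a1 and Col5a1 held under 12, Col15a1 under 8 and Col1a2 under 4, and in total RNA Col18a1 under 9 and Col1a2 under 7. Over all genes, calls in heavy polysome RNA ran from 0 to 2641 (1310 as reported) and in total RNA from 0 to 3225 (644). Same-numbered arrays of the fractions correlated at -0.02, 0.17, -0.11 and -0.30 in their deviations, and only total RNA array 2 correlated best with its own number. A pairing by number was thus not shown. These correlations of noisy arrays at differing slide positions cannot settle whether same-numbered arrays share a culture. With the replicate block 0 collagens passed in the difference, in Cy5 or in Cy3 and 0 pathway genes in the difference. All-gene calls were then 16 in Cy5 (23 as reported) and 64 in Cy3 (339).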
